A study of Rattus norvegicus with 24 samples.

Results

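The chromosome 6 probes of a rat CpG island tiling array are described here in 24 mammary samples, both for the amount of DNA they reported and for its methylation. The members were all 4238 non-control probes that the array design places on chromosome 6 of the rn4 assembly, of 93024 non-control probes in all. They were 45 to 60 bases long and ran from position 961403 to position 147555238. Chromosome 6 was selected on the unenriched signals of 1 tumor, IR-7W6 (tumor 6 of the group irradiated at 7 weeks), which were low there. The unenriched values of that tumor on chromosome 6 are therefore given as a description with no test, and so are its own enrichment values. The comparisons between groups include this tumor, and those it enters were also made without it.

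The DNA came from female Sprague-Dawley rats of 1 outbred stock. The IR-3W group held 7 mammary carcinomas of rats given 2 Gy of whole-body 137Cs gamma rays once at 3 weeks of age, before puberty, and the IR-7W group held 7 carcinomas of rats given the same dose at 7 weeks, after puberty. A further 7 spontaneous carcinomas and 3 normal mammary glands (NMG) came from rats that were not irradiated. All of the rats were moved from standard chow to an AIN-76A diet rich in corn oil after 9 weeks of age, to promote mammary tumors. IR-3W6 and IR-3W7 came from the same rat, as did IR-7W1 and IR-7W2, while IR-7W6 shared its rat with no other array. Each sample was a piece of tissue, so that tumor cells, stroma and normal epithelium were measured together.

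CpG islands are short stretches rich in the CG dinucleotide, and many of them lie at gene promoters. In normal tissue most islands carry little methylation, a minority are methylated, and in carcinomas some of the unmethylated islands gain methylation while the genome around them tends to lose it. On each array the DNA labelled with Cy5 had been captured by a methyl-CpG binding domain (MBD) protein, which binds methylated CpG sites. The DNA labelled with Cy3 came from the same sample and had not been captured. The Cy3 signal of a probe follows how much of that stretch the sample contains, which is why runs of neighboring probes can show a gain or a loss of chromosome copies. The log2 ratio of Cy5 to Cy3, centered on the median of each array, is called the enrichment, and a higher enrichment means more methylated DNA per unit of DNA present. In a piece of tissue, fewer copies in every cell and a loss of copies in only a share of the cells cannot be told apart.

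Chromosome 6 of the rat carries genes of interest to mammary cancer and to methylation itself. Of 37 gene symbols listed for the chromosome, 35 were found in the RefSeq table of the newer GRCr8 assembly, and all 35 were on chromosome 6 there. They include Mycn, a proto-oncogenic transcription factor, Akt1, a kinase of the phosphoinositide 3-kinase pathway, Dnmt3a, a DNA methyltransferase that sets new methylation marks, and Dlk1 and Meg3, of an imprinted cluster. Their positions in rn4 were not available from the sources used here, so no island below was matched to a gene, and islands are named by position.

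The 24 arrays correlated with each other at 0.755 to 0.956 over all probes. On chromosome 6, 89.5 to 99.1% of the probes were well above background in Cy3 and 73.0 to 95.4% in Cy5. In normal glands 71.7% of the chromosome 6 probes had an enrichment under 0.5 (low class), 18.9% lay between 0.5 and 2 (intermediate), and 9.41% were above 2 (high), against 71.0, 17.3 and 11.7% over the other 19 autosomes.

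The unenriched DNA of IR-7W6 was low over 1 long stretch of chromosome 6 and not over the rest. The Cy3 signal of each probe was set against the autosomal median of its array and then against the mean of the 3 normal glands, so that 0 means the level of the glands on the log2 scale. A least-squares search for the segment that best split the probes of IR-7W6 found chr6:94263426-143788331 (rn4), a length of 49.5 Mb with 1983 probes, which are 46.8% of those on the chromosome. In this segment the median Cy3 difference of IR-7W6 was -0.55, which is 68.3% of the gland level. Over the other 2255 probes of the chromosome, 2197 before the segment and 58 after it, it was 0.042, or 103% of the gland level. The split accounted for 26.3% of the variance of the Cy3 differences among the chromosome 6 probes of IR-7W6. The best segment that the same search found in any of the other 23 arrays accounted for 0.53 to 2.34%.

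The Cy3 difference of IR-7W6 changed across both edges of the segment. The last 60 probes before its left edge had a median Cy3 difference of -0.095 in IR-7W6, and the first 60 inside it had -0.52. At the right edge the last 60 probes inside had -0.61, and the 58 probes from there to the end of the probed chromosome had 0.12. The probes just outside both edges lay within the range of the other 23 arrays, and those just inside lay below it. With other references or background corrections the left edge moved between positions 94025173 and 94263426. The right edge stayed at 143788331, apart from 144418955 when an intensity trend was removed by loess. The Cy5 channel of IR-7W6 on its own gave a best segment of chr6:95473659-138148058 (rn4), which lies inside the segment found on Cy3.

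No other array was low over the whole of this stretch, although the best segments of some were short low runs inside it. The longest of these by probes with a median below -0.1 was in spontaneous tumor 4, where 53 probes at chr6:135308027-135609484 had a median of -0.35. In the segment, the median Cy3 differences of the normal glands, each set against the mean of the other 2, were -0.049 in NMG1, 0.086 in NMG2 and -0.019 in NMG3. The IR-3W tumors ran from -0.014 to 0.043 with a median of 0.0023, and the spontaneous tumors from -0.0032 to 0.10 with a median of 0.039. Of the IR-7W tumors, the 6 other than IR-7W6 ran from -0.00015 to 0.060. IR-7W6 thus stood apart from all 23 other arrays, among which the groups overlapped. Over the rest of chromosome 6 IR-7W6 lay inside the range of the other 20 tumors, which was -0.0056 to 0.12.

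**Figure D1:**
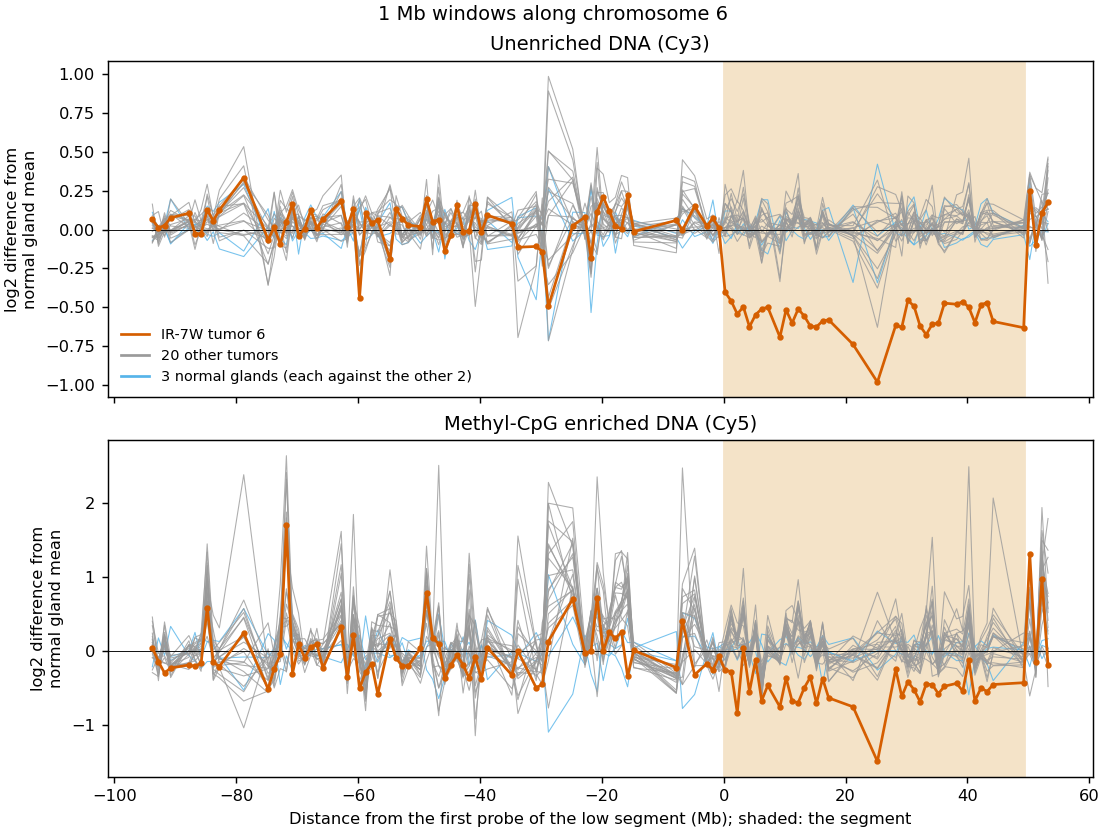
Median Cy3 (top) and Cy5 (bottom) difference of the probes from the normal gland mean, on the log2 scale, in 1 Mb windows with at least 5 probes, against the distance in Mb from the first probe of the low segment, which is shaded. Each line is an array, with IR-7W6 in orange, the other 20 tumors in gray and the 3 normal glands in blue. In the segment the Cy3 windows of IR-7W6 run from -0.98 to -0.40, while at most 2 windows of any other array are below -0.3.

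In 1 Mb windows with at least 5 probes, all 36 windows of the segment had a median Cy3 difference below -0.3 in IR-7W6. They ran from -0.98 to -0.40 with a median of -0.57. Of the 69 windows on the rest of the chromosome, 2 were below -0.3 in IR-7W6, and of the 1784 windows on the other autosomes 43 were, or 2.41%. In the other 23 arrays 0 to 2 of the 36 segment windows were below -0.3. The array with 2 of them, IR-3W7, also had the most such windows on the other autosomes, at 88 of 1784.

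The size of the drop was similar along the segment. In blocks of 10 Mb, the median Cy3 difference of IR-7W6 was -0.60 from 100 to 110 Mb, -0.64 from 110 to 120 Mb, -0.59 from 120 to 130 Mb and -0.49 from 130 to 140 Mb. The blocks that hold an edge were shallower, at -0.37 from 90 to 100 Mb and -0.28 from 140 to 150 Mb. The 9 blocks from 0 to 90 Mb lay between -0.076 and 0.092. Over 252 autosomal blocks of 10 Mb with at least 50 probes in the 24 arrays, the 5 lowest of 6048 values were blocks of chromosome 6 in IR-7W6, and so was the 7th. Chromosome X was left out of this order, and the X of IR-7W3 had a median Cy3 difference of -0.67 over 2494 probes.

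No other autosome of IR-7W6 was shifted by as much. The median Cy3 difference of the other 19 ran from -0.033 to 0.056. A further 60 probes on sequence assigned to chromosome 6 without a position, which are no members, had a median Cy3 difference of -0.29 in IR-7W6 and of -0.096 to 0.15 in the other 23 arrays. The array on the same slide, IR-7W5, had 0.060 in the segment, and the 5 other arrays scanned on the same day had 0.0013 to 0.089. In IR-7W6, 89.4% of the segment probes were well above background in Cy3 and 92.9% of the other chromosome 6 probes were, where the other arrays had 88.7 to 99.1% in the segment.

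The MBD-captured DNA, which was labelled and measured in the other channel and was not used to choose the chromosome, was low over the same stretch. The median Cy5 difference of IR-7W6 from the normal glands was -0.51 in the segment and -0.069 over the rest of chromosome 6. In the segment the other 20 tumors had Cy5 differences from -0.017 to 0.25, and the glands from -0.056 to 0.051. IR-7W6 was thus also the lowest of the 24 arrays in Cy5 in the segment, with no overlap. Its other 19 autosomes had Cy5 differences of -0.12 to -0.0061. Over the whole of chromosome 6 its median difference was -0.32 in Cy3 and -0.25 in Cy5.

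**Figure D2:**
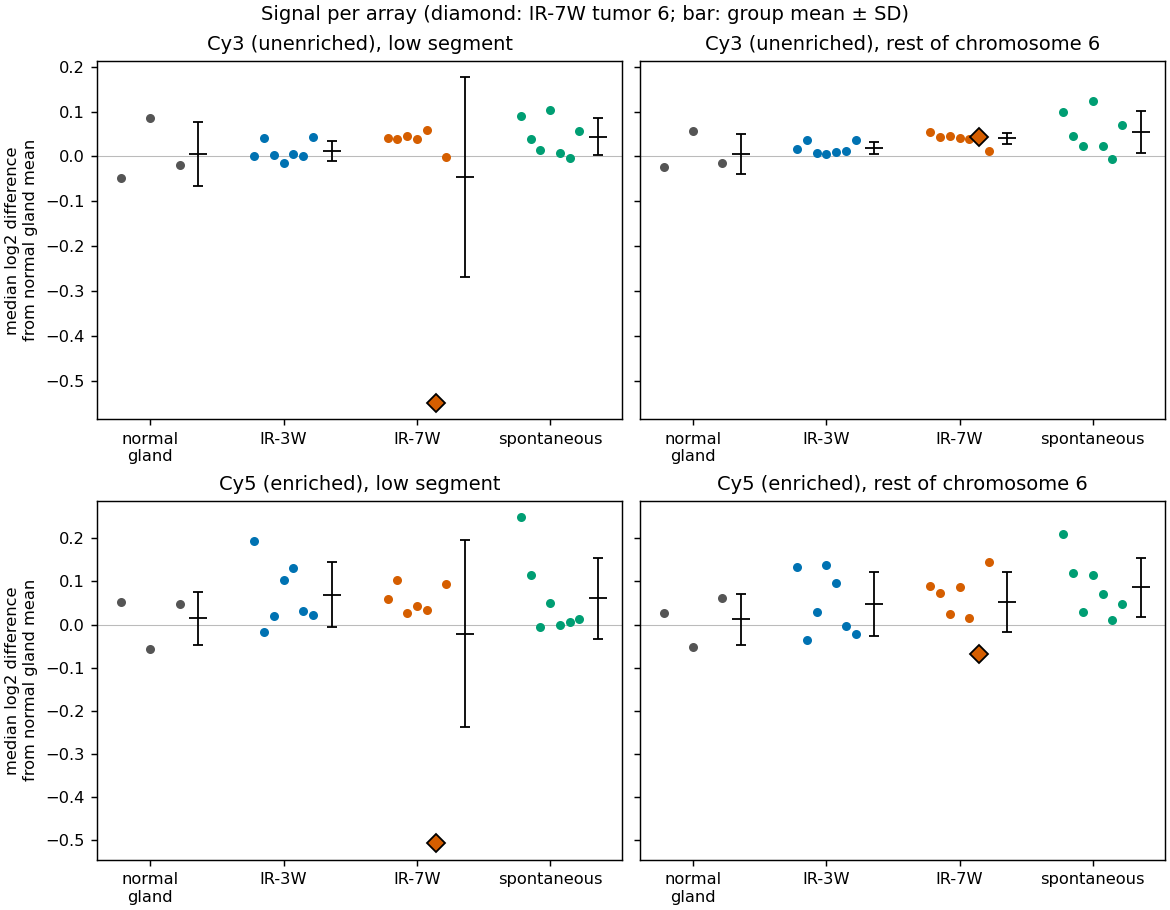
Median log2 difference from the normal gland mean in each of the 24 arrays, for Cy3 (top) and Cy5 (bottom), over the low segment (left) and the rest of chromosome 6 (right), with the mean and SD of each group. In the segment the diamond of IR-7W6 lies at -0.55 in Cy3 and -0.51 in Cy5, below every other array, and outside it at 0.042 in Cy3.

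The size of the Cy5 difference depended on the background correction. With normexp correction of the median spot signals in place of the processed signals, the segment of IR-7W6 was at -0.42 in Cy3 and at -0.14 in Cy5. Its place below 0 was the same in every setting tried in both channels.

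The drop was seen in probes of every methylation class of the normal glands. Relative to the probes of the same class on the other autosomes of the same array, the segment of IR-7W6 had a Cy3 difference of -0.57 in the low class (1405 probes), -0.59 in the intermediate class (352 probes) and -0.62 in the high class (226 probes). The corresponding Cy5 differences were -0.43, -0.41 and -0.69. In the other 20 tumors the Cy3 values of the segment ran from -0.042 to 0.041 over the 3 classes. Split by the brightness of the probes in the glands, the Cy3 difference of the segment in IR-7W6 was -0.41 in the dimmest quartile and -0.55 to -0.60 in the others.

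With the processed signals both channels fell by a similar amount, and their ratio moved by less than either. This does not hold with normexp correction, where Cy5 fell by 0.14 and Cy3 by 0.42. Relative to the same class on the other autosomes, the enrichment of the segment in IR-7W6 was 0.10 in the low class, where the other 20 tumors had -0.053 to 0.038. It was 0.084 in the intermediate class (others -0.090 to 0.090) and -0.089 in the high class (others -0.11 to 0.079). IR-7W6 was thus above the other tumors in the low class and inside their range in the intermediate and high classes. The median enrichment of all segment probes was 0.13 in IR-7W6 and -0.041 to 0.029 in the other 23 arrays. Split by the brightness of the probes in the glands, it was 0.13, 0.076, -0.044 and 0.15 relative to the other autosomes, from the dimmest to the brightest quartile. The highest of the other 20 tumors had 0.085, 0.056, -0.040 and 0.11. The low Cy3 signal is the denominator of this ratio, so the higher value is no measure independent of the drop, and the part that dim signals have in it was not tested.

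**Figure D3:**
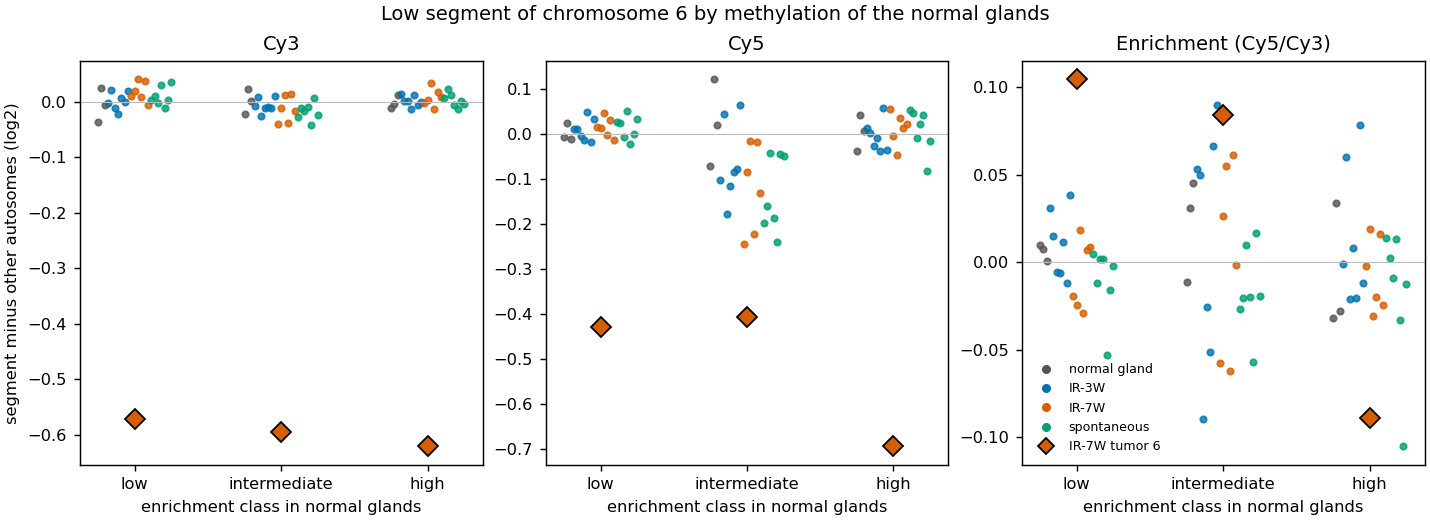
Low segment minus the other autosomes of the same array, on the log2 scale, for Cy3, Cy5 and enrichment, in probes of low, intermediate and high enrichment in the normal glands, with 1 point for each of the 24 arrays. IR-7W6 (diamond) lies at -0.57 to -0.62 in Cy3 and -0.41 to -0.69 in Cy5, below the other arrays, and at 0.10 to -0.089 in enrichment, close to them.

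The same drop can be described in single places from the same probes, whose Cy3 values chose the chromosome and the segment. Probes were joined into islands, runs of at least 3 probes in which each starts at most 1000 bp after the end of the one before. This gave 579 islands on chromosome 6 of 13220 on the array. Of the 267 islands inside the segment, IR-7W6 had the lowest Cy3 of the 21 tumors in 249 (93.3%), while on the rest of chromosome 6 this was so in 20 of 312 (6.41%). On the other autosomes it was the lowest in 660 of 12145 islands (5.43%). No other tumor was the lowest in more than 1.87% of the segment islands. In Cy5 it was the lowest in 164 of the 267 segment islands (61.4%), against 37 of 312 (11.9%) and 1296 of 12145 (10.7%).

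The enrichment of these islands did not stand apart in the same way. IR-7W6 had the highest enrichment of the 21 tumors in 36 of the 267 segment islands (13.5%), 18 of the 312 on the rest of the chromosome (5.77%) and 738 of 12145 on the other autosomes (6.08%). Single other tumors were the highest in 0.749 to 22.5% of the segment islands. Against the median of the other 20 tumors, the median segment island of IR-7W6 differed by -0.63 in Cy3, by -0.51 in Cy5 and by 0.13 in enrichment. An enrichment more than 1 above that median was found in 10 of the 267 segment islands (3.75%), 4 of 312 on the rest of chromosome 6 (1.28%) and 327 of 12145 elsewhere (2.69%).

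The next question was whether chromosome 6 as a whole was more or less methylated in any group of tumors. The mean enrichment over the chromosome 6 probes was 0.231, 0.124 and 0.230 in NMG1, NMG2 and NMG3. It was 0.288 ± 0.088 (SD, n = 21) in the tumors and 0.195 ± 0.061 (SD, n = 3) in the glands, a difference of 0.093 with p = 0.101 in a two-sided exact permutation test over 2024 arrangements. The IR-7W mean of 0.302 ± 0.031 (SD, n = 7) and the IR-3W mean of 0.312 ± 0.101 (SD, n = 7) differed by -0.0093 (exact permutation p = 0.872 over 3432 arrangements). The spontaneous tumors had 0.250 ± 0.110 (SD, n = 7), which was 0.062 under IR-3W (exact permutation p = 0.302) and 0.053 under IR-7W (exact permutation p = 0.255). Adjusted over the 8 comparisons of this kind, the p-values of these 4 exact permutation tests were 0.638 to 0.945. Without IR-7W6 the tumors were 0.090 above the glands, while IR-7W differed from IR-3W by -0.016 and from the spontaneous tumors by 0.046.

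These means also carry shifts shared by all chromosomes, so each was set against the other autosomes of the same array. Chromosome 6 was then less enriched than the other autosomes in every array, from -0.0907 in IR-3W1 to -0.0259 in IR-3W2. This sign sets different probes against each other, with 9.41% in the high class on chromosome 6 and 11.7% on the other autosomes. The part of that difference was not tested. The 21 tumors had -0.0486 ± 0.0154 (SD, n = 21) where the glands had -0.0493 ± 0.0170 (SD, n = 3). The difference was 0.00068 (exact permutation p = 0.945, adjusted 0.945). The mean of the IR-3W tumors was -0.0544, that of the IR-7W tumors -0.0449 and that of the spontaneous tumors -0.0466, and the exact permutation p-values between them were 0.319, 0.422 and 0.805 before adjustment. These differences were smaller than the spread between tumors of a group, which was 0.0130 to 0.0195 (SD). With its segment IR-7W6 had -0.0335, and the remaining IR-7W tumors ran from -0.0731 to -0.0336. Without it the tumors differed from the glands by -8.02e-05, and IR-7W from IR-3W by 0.0076 and from the spontaneous tumors by -0.00016.

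**Figure D4:**
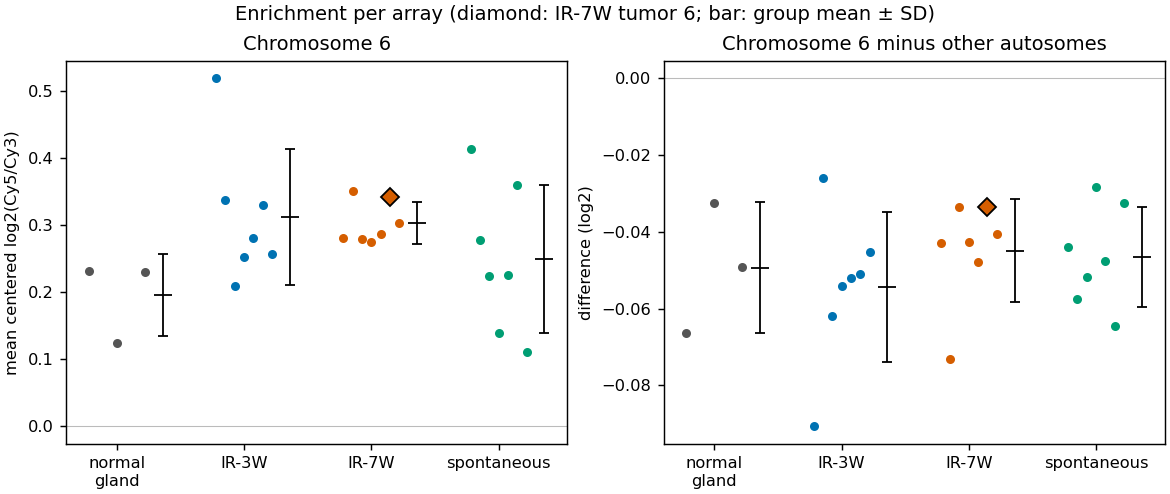
Mean centered log2(Cy5/Cy3) of the chromosome 6 probes in each of the 24 arrays (left) and the same minus the other autosomes (right), with the mean and SD of each group. The 3 groups of tumors overlap in both panels, all 7 IR-7W tumors lie above the 3 glands on the left, IR-3W1 is the highest array on the left at 0.518, and IR-7W6 (diamond) lies within the other tumors in both.

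Single places on the chromosome did differ between tumors and normal glands. With limma over all 93024 probes, 1100 of the 4238 chromosome 6 probes (26.0%) differed at an adjusted p under 0.05, against 22.8% of all probes. Of these, 506 were higher and 594 were lower in tumors, where 10.5% and 12.3% of all probes were. Among islands, 150 of 579 (25.9%) differed, 69 higher and 81 lower, against 23.2% of all 13220 islands. Over all islands 10.7% were higher and 12.6% lower. The split depended on the treatment of the background, and the whole array moved the same way. After normexp correction 43 islands of chromosome 6 were higher and 111 lower, where 7.18% and 15.3% of all islands were. On probes well above background in Cy3 62 were higher and 123 lower, where 10.2% and 18.2% of all islands were. The 267 segment islands held 26 of the higher and 27 of the lower ones. The chromosome 6 shares were thus close to those of the whole array. Without IR-7W6, 1105 probes and 153 islands of the chromosome passed, where 23% and 23.3% of all did.

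The islands that passed are given next by their level in the normal gland, with no test between the classes. Of 469 islands in the low class, 53 rose and 77 fell, where 11.9% and 15.2% of the low islands of the whole array did. Of 56 intermediate islands, 16 rose and 4 fell, where 15.8% and 11% of the intermediate islands of the array did. In the high class 0.534% of the islands of the array rose and 0% fell, and of the 54 on chromosome 6 none passed the limma test at an adjusted p under 0.05 or at an unadjusted p under 0.05. The classes were set on the same gland values that enter the difference. With the processed signals the islands that rose did so by more than those that fell, with a median difference of 0.83 (0.31 to 1.95) against -0.40 (-0.73 to -0.20). These sizes depended on the setting. Over the other settings the smallest differences of the 8 largest gains were 0.57 to 0.90, and those of the 8 largest losses were -0.56 to -0.080. Every one of the 21 tumors lay above all 3 glands in 22 of the 69 islands that rose, and below all 3 glands in 38 of the 81 that fell. Over all 579 islands of the chromosome this was so in 22 and in 39, where 2.97% and 6.18% of the islands of the whole array did so.

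The scan day moves with this comparison. The glands were scanned together with only 1 tumor, spontaneous tumor 3, and NMG2 shared a slide with it. The median difference of that tumor from the glands was 0.53 over the 69 islands that rose and -0.31 over the 81 that fell. The islands were called on these same glands and on tumors that include this one, so its direction is largely set by the choice of islands, and the part of the scan day was not tested. With the scan day or the slide as a block in limma, a fit that then rests on these few arrays, none of the 150 islands passed the adjusted threshold, where 0.265% of all islands did with the day and 0% with the slide. Without NMG2 or NMG3 the number of islands that passed was 60 or 70, where 8.86% or 10.7% of all islands did.

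The size of the rise varied between tumors more than that of the fall. Over the 69 islands that rose, the median difference from the gland mean ran from 0.39 in IR-3W7 to 0.84 in the IR-3W group. It ran from 0.72 to 1.04 in the IR-7W group, highest in IR-7W4, and from 0.53 to 1.01 in the spontaneous group. A gain of more than 1 was seen in 7 to 35 of the 69 islands of a tumor. Over the 81 islands that fell, the medians of the 21 tumors ran from -0.56 to -0.26, and a fall of more than 1 was seen in 0 to 2 of the 81 islands of a tumor.

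The island with the largest gain lay close to the end of the chromosome, past the low segment. It was chr6:146168488-146169197 (rn4, 9 probes), with an enrichment of -0.80, -1.10 and -1.20 in NMG1, NMG2 and NMG3. In the tumors it ran from -0.40 in IR-3W7 to 1.99 in spontaneous tumor 1, with a median of 0.92 and with 1.26 in IR-7W6. All 21 tumors were above all glands, and the difference of the means was 1.95 ± 0.33 (SE), with a limma adjusted p of 0.00034.

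Of the 8 islands with the largest gains, 4 lay together around 9 Mb. The first, chr6:9090421-9090882 (rn4, 5 probes), had 0.0033, -0.21 and 0.022 in the 3 glands and ran from 0.11 in IR-7W3 through a median of 1.74 to 4.23 in IR-3W1. Its difference was 1.85 ± 0.50 (SE), with a limma adjusted p of 0.0104. A little further on, chr6:9102570-9103131 (8 probes) had -0.049, -0.041 and 0.18 in the glands and 0.33 to 3.28 in the tumors, a difference of 1.56 ± 0.37 (SE; limma adjusted p 0.0046). In both of them every tumor was above all of the glands, although the lowest tumors came close to the glands.

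The other members of this group were chr6:9002627-9003823 (11 probes) and chr6:9016742-9017499 (7 probes). The former had 0.40, -0.19 and 0.16 in the glands and 0.70 to 2.01 in the tumors, a difference of 1.30 ± 0.24 (SE; limma adjusted p 0.00064), and its highest tumor was IR-7W6. The latter had 0.30, 0.038 and 0.57 in the glands and 0.42 to 2.93 in the tumors, a difference of 1.30 ± 0.36 (SE; limma adjusted p 0.0111). Here 20 of the 21 tumors were above all glands, and the exception was IR-3W7.

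The stretch they lie in, from 8.8 to 9.3 Mb, was chosen after its values were seen. It held 12 islands, of which 8 rose and none fell at the limma adjusted threshold, where 10.7% and 12.6% of all islands did. All 12 had a difference above 0, with a median of 1.12. Averaged over the 12 islands, the glands had -0.016 to 0.31, the IR-3W tumors 0.43 to 1.31, the IR-7W tumors 0.86 to 1.60 and the spontaneous tumors 0.86 to 1.64. No tumor overlapped the glands here, and the tumor groups overlapped each other. IR-7W6, in which this stretch is not in the low segment, had 1.31.

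Inside the low segment, 2 neighboring islands were among the 8 largest gains. At chr6:138153537-138153930 (rn4, 4 probes) the glands had 0.20, -0.28 and -0.60, and the tumors ran from 0.0011 in IR-3W6 through a median of 1.32 to 3.06 in IR-7W6. The difference was 1.62 ± 0.48 (SE; limma adjusted p 0.0171), and 18 of 21 tumors were above all glands. In IR-7W6 its Cy3 difference was -0.89 and its Cy5 difference 2.39, where the median tumor had a Cy5 difference of 1.59. The captured DNA of this island was thus more abundant than in the median tumor, although the unenriched DNA was less abundant.

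At the neighboring island chr6:138159249-138159883 (9 probes) the glands had 1.23, 0.96 and 1.06, and the tumors 1.27 to 3.66 with a median of 2.76. The difference was 1.56 ± 0.32 (SE; limma adjusted p 0.0016), and all 21 tumors were above all glands. IR-7W6 had an enrichment of 3.17 there, with a Cy3 difference of -0.63 and a Cy5 difference of 1.44.

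The last of the 8 was chr6:77010778-77011263 (rn4, 6 probes), with 0.82, 0.40 and 0.61 in the glands and 1.29 to 3.49 in the tumors. Its difference was 1.67 ± 0.33 (SE; limma adjusted p 0.0012), and it was above the glands in all 21 tumors. The stretch of islands around it, chr6:76744675-79935365, was chosen after its values were seen. There 6 of 22 islands rose and 1 fell, where 10.7% and 12.6% of all islands did. The mean of the 22 was -0.18 to -0.020 in the glands and 0.071 to 0.75 in the tumors, lowest in IR-7W6.

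**Figure D5:**
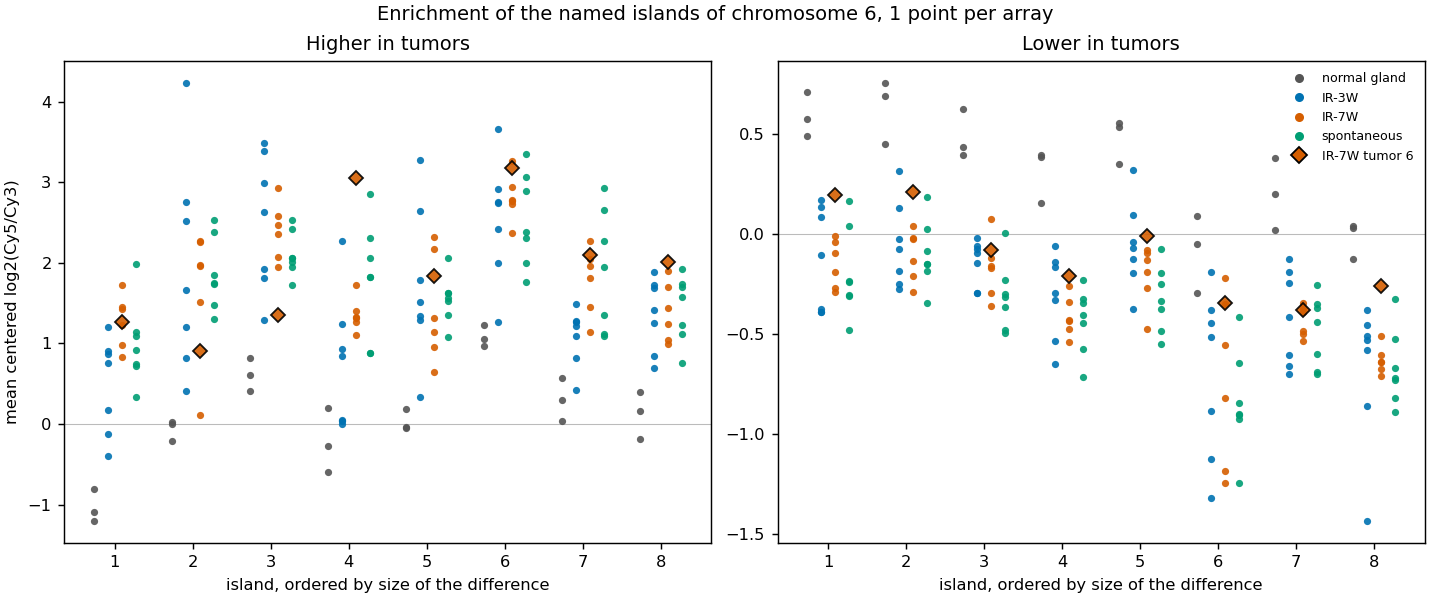
Enrichment, as mean centered log2(Cy5/Cy3), of the 8 islands with the largest gain (left) and the 8 with the largest loss (right) among those at a limma adjusted p under 0.05, ordered by size, with 1 point for each array. The gains run up to 1.95 and the tumors spread widely, while the losses run down to -0.73 and the tumors lie closer together.

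The islands that fell changed by less and were more uniform. The largest loss was at chr6:54240002-54240523 (rn4, 5 probes), with 0.49, 0.57 and 0.71 in the glands and -0.48 to 0.20 in the tumors, a difference of -0.73 ± 0.13 (SE; limma adjusted p 0.00047). The highest tumor there was IR-7W6. Further on, chr6:54752805-54753460 (4 probes) had 0.44, 0.63 and 0.40 in the glands and -0.49 to 0.073 in the tumors, a difference of -0.69 ± 0.10 (SE; limma adjusted p 0.00015). All 21 tumors were below all glands in both.

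Similar losses were found at chr6:21048334-21049069 (-0.70 ± 0.11, SE), chr6:11525012-11525505 (-0.69 ± 0.11, SE) and chr6:48916278-48916672 (-0.67 ± 0.12, SE), with limma adjusted p-values of 0.00022 to 0.00073 and all 21 tumors below all glands. At chr6:93091929-93092444, which lies before the low segment, the difference was -0.65 ± 0.21 (SE; limma adjusted p 0.027), with 19 of 21 tumors below all glands. These islands started from low or intermediate levels in the glands, and none of the 8 was in the high class.

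The low segment held the remaining 2 of the 8. At chr6:136603157-136604231 (rn4, 9 probes) the glands had 0.021, 0.20 and 0.38 and the tumors -0.70 to -0.13, a difference of -0.65 ± 0.11 (SE; limma adjusted p 0.00037). At chr6:127800347-127801214 (3 probes) the glands had -0.13, 0.041 and 0.031 and the tumors -1.44 to -0.26, a difference of -0.62 ± 0.14 (SE; limma adjusted p 0.0036). IR-7W6 was the tumor nearest to the glands in the latter. All 21 tumors were below all glands in both. Without IR-7W6 all 16 islands named for tumors against glands had a limma adjusted p of at most 0.0226, and no difference moved by more than 0.083. The glands mattered more, since 15 of the 16 still passed without NMG1, 12 without NMG2 and 13 without NMG3.

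The age at irradiation was the main contrast of the study. Between IR-7W and IR-3W, none of the 4238 chromosome 6 probes and none of the 579 islands passed an adjusted p under 0.05 in limma, and the share of all probes and of all islands that did was 0% as well. At an unadjusted p under 0.05 it was 327 probes on chromosome 6, where 6.49% of all probes passed, and 58 islands, where 7.97% of all islands did. The smallest adjusted p on chromosome 6 was 0.109 among probes and 0.180 among islands. Without IR-7W7, 5 chromosome 6 probes passed, 3 of them in the segment and all higher in IR-7W, where 0.0881% of all probes passed. The share of all probes by direction is not given here.

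At an unadjusted p under 0.005, 13 islands of chromosome 6 differed, 11 higher and 2 lower in IR-7W, where 1.51% of all islands differed. Directions were not counted over the whole array at this threshold, so the split is not read as a trait of chromosome 6. The ages did not differ significantly at any of the 13 islands after adjustment, and the values that follow are given with that limit. At chr6:133296008-133296649 (rn4, 5 probes, in the segment) the IR-7W tumors had 1.68 ± 0.42 (SD, n = 7) and the IR-3W tumors 0.79 ± 0.26 (SD, n = 7), with a limma adjusted p of 0.180. The glands had 0.83 to 1.07 there and the spontaneous tumors 0.90 to 2.63. At chr6:76913971-76914328 (4 probes) the IR-7W tumors had 0.41 ± 0.46 (SD, n = 7) and the IR-3W tumors -0.53 ± 0.36 (SD, n = 7), with a limma adjusted p of 0.203. The glands had -0.91 to -0.71, and IR-7W6 was the lowest of its group, at -0.44. The groups differed by 0.89 and by 0.94 at these islands, and by 0.86 and by 1.08 without IR-7W6.

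IR-7W6 was the highest of its group at a pair of further islands. At chr6:126555231-126555985 (4 probes, in the segment) the groups differed by 0.95 ± 0.28 (SE; limma adjusted p 0.305), and by 0.83 without IR-7W6, which had 2.23. At chr6:144418905-144419571 (4 probes), the first island after the segment, they differed by 0.89 ± 0.27 (SE; limma adjusted p 0.325) and by 0.73 without IR-7W6, which had 1.98.

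The only 2 lower in IR-7W were chr6:136199857-136200515 (6 probes, in the segment) and chr6:9225484-9226553 (7 probes). The former is highly methylated in the gland, at 3.21, 2.15 and 3.45 in NMG1, NMG2 and NMG3, and had 3.09 ± 1.21 (SD, n = 7) in IR-3W and 1.57 ± 0.42 (SD, n = 7) in IR-7W, with a limma adjusted p of 0.311. The IR-3W values ran from 1.91 to 5.48, highest in IR-3W1, and the spontaneous tumors from 0.93 to 2.29. The groups overlap there, since IR-7W5 had 2.05. The latter had 2.14 ± 0.41 (SD, n = 7) in IR-3W and 1.48 ± 0.33 (SD, n = 7) in IR-7W (limma adjusted p 0.299), against 1.27 to 1.92 in the glands. IR-7W6 was the lowest of the 21 tumors at the former, with 0.89 and a Cy5 difference of -2.55. Without IR-7W6 the groups differed by -1.41 and by -0.67 at these islands. Of the 6 islands named for the ages, 2 were still at an unadjusted limma p under 0.005 without this tumor, chr6:76913971-76914328 and chr6:133296008-133296649.

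The stretch after the segment, from its right edge to the last probe, was also chosen after its values were seen. It held 10 islands, of which 2 rose and 1 fell against the glands, where 10.7% and 12.6% of all islands did. The mean of these 10 was 0.038 to 0.057 in the glands, -0.031 to 0.31 in the IR-3W tumors, 0.32 to 0.62 in the IR-7W tumors and 0.15 to 0.55 in the spontaneous tumors. In this average over islands all 7 IR-7W tumors were above all 7 IR-3W tumors, IR-7W6 among them at 0.60. The gap was narrow, from 0.308 in IR-3W4 to 0.319 in IR-7W3. Averaged over the 58 probes of the stretch the groups overlapped, with 0.337 in IR-3W2 and 0.290 in IR-7W7. No test was made of a place picked in this way.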

How the data were processed

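Each of 24 samples gave 1 Agilent 2-color array, with MBD-captured DNA in Cy5 and the uncaptured DNA of the same sample in Cy3. Per the file headers, the deposited intensity values (processed signals) were background-subtracted and linearly dye-normalized by Agilent Feature Extraction 10.7.3.1, with positions in rn4. The log10 ratios per the file headers are Cy5 over Cy3 of the same signals. A deposited table of log2 ratios, used as an alternative, matched log2(Cy5/Cy3) at a tolerance of 0.001 in 97.9 to 99.6% of probes per array, with column medians of -0.27 to 0.095. The methylation probability scores of the study's methods were not used here.

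Control spots and outlier spots were left out. Cy3 and Cy5 were taken as log2 intensity minus the autosomal median of the array, minus the mean of the normal glands per probe (each gland against the other 2), and summarized as medians. Enrichment was log2(Cy5/Cy3) centered on the array median. It was tested with limma 3.58.1 (R 4.3.3; Benjamini-Hochberg over all probes or all islands) and, for 1 value an array, with exact permutation tests. No count depth exists for arrays, and the number of arrays limits the precision. Replicates are separate tumors, of which 2 pairs share a rat.

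The limma fits and the segment search were run on simulated data with known changes. The fits recovered 185 to 200 of 200 changes of 4 SD, with 6 to 15 false calls. The simulated noise was independent and had no slide or scan day effect, so these runs do not cover such effects. The chromosome, its low tumor and the gene list were chosen with earlier results of these data known. Islands named are the 8 with the largest difference in each direction at an adjusted p under 0.05, and between the ages the 4 in each direction at an unadjusted p under 0.005. The segment, the class limits of 0.5 and 2, the window limit of -0.3, islands for the ages and the 3 places were chosen after the data were seen. Alternatives covered background correction, reference, filters, centering, scaling, the methods' t-test, slide, scan day, replicate number, 1 tumor per rat and each array left out. No rn4 annotation was used, so the gene list could not be counted over islands.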

Additional observations from a re-analysis of the deposited data

Results flagged for a closer look

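In 7 of the 87 groups of arrays examined (8.05%), over 29 quantities, 1 array lay far from the nearest other array of its group relative to the range of the group. About 1 in 20 groups would do so by chance, but that rate does not hold for places picked by their values. The values of IR-7W6, whose low signals chose the chromosome and the segment, are given as a description.

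IR-7W6 stood apart in the IR-7W group in 3 of them. Its median Cy5 difference was -0.25 over chromosome 6, where the other 6 had 0.025 to 0.12, and -0.51 in the low segment, where they had 0.027 to 0.10. Its enrichment at chr6:138153537-138153930 was 3.06, where they had 1.10 to 1.73.

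IR-3W1 stood apart in the IR-3W group in 3 more. Its mean enrichment was 0.518 over chromosome 6, against 0.209 to 0.337 in the other 6, and 0.631 in the low segment, against 0.244 to 0.388. At chr6:136199857-136200515 it had 5.48, against 1.91 to 3.44. The last was IR-7W2, whose chromosome 6 was at -0.0731 relative to its other autosomes, where the other 6 IR-7W tumors had -0.0479 to -0.0335.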

How the results depend on the processing

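The low segment of IR-7W6 stayed below the glands in every setting. Its Cy3 was -0.42 with normexp background correction, -0.64 as a mean over probes, -0.52 on probes well above background and -0.571 to -0.512 with each gland left out. Its Cy5 was -0.14 with normexp, -0.45 against the other 6 IR-7W tumors, -0.44 as a mean, -0.46 with an intensity trend removed by loess and -0.529 to -0.468 with each gland left out. Over the whole chromosome Cy3 was -0.30 with normexp, -0.36 against the other 6 IR-7W tumors, -0.34 as a mean, -0.26 on probes well above background, -0.25 with loess and -0.316 to -0.282 with each gland left out. It was -0.015 as a median of 1 Mb windows, most of which lie outside the segment. Whole-chromosome Cy5 was -0.046 with normexp, -0.21 as a mean and -0.18 with loess. Relative to the other autosomes, the chromosome 6 enrichment of IR-7W6 was 0.0133 above the mean of the other 6 IR-7W tumors. This became 0.0528 with medians over probes, 0.0242 with normexp and 0.00409 on probes well above background in both channels.

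The differences in mean enrichment are small against their spread and changed sign easily. For tumors minus glands the level was -0.0537 with normexp and -0.0120 with medians. Relative to the other autosomes it was -0.00879 with medians, -0.00806 on probes well above background in both channels, -0.0195 with the slide and -0.00258 with the scan day as a block, and -0.00783 to 0.00916 with 1 array left out. IR-7W minus IR-3W was 0.00899 with medians and 0.0398 with the slide as a block in level, -0.0264 to 0.0251 with 1 array left out, and -0.000754 with the slide as a block relative to the other autosomes. IR-3W minus spontaneous was -0.0803 with the slide and -0.00312 with the scan day as a block in level, and 0.00836 with medians and 0.0126 with the slide relative to the other autosomes. IR-7W minus spontaneous relative to the other autosomes was -0.00314 on probes well above background in both channels and -0.00126 to 0.00644 with 1 array left out. The cause was not tested.

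Replicate numbers are shared between groups but do not pair the samples, since correlations of same-numbered arrays fall on both sides of 0 (between IR-3W and IR-7W -0.178 to 0.264). With the replicate number as a block, tumors minus glands was 0.126 in level (exact permutation p = 0.0469) and -0.0042 relative to the other autosomes, and the counts for tumors against glands were 995 probes and 135 islands (20.5% of all probes and 20.9% of all islands passed).

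Counts for tumors against glands fell to 1 probe and 0 islands with the slide as a block (0.0183% of all probes passed) and to 28 probes and 0 islands with the scan day as a block (0.74%). With 1 array left out they were 536 to 1164 probes and 60 to 164 islands, lowest without NMG2 (537 probes) or NMG3 (536 probes). Between the ages they were 0 to 5 probes. Of the 150 islands, 87 were also among the 154 called with normexp, and of the 16 named ones 9 were. The methods' t-test with Benjamini-Hochberg adjustment called 1123 probes and 149 islands for tumors against glands (23.1% and 23.3% over the array) and 0 of either between the ages, where 54 probes and 9 islands of chromosome 6 were under the methods' unadjusted threshold (0.947% and 1.2% over the array). No named island changed direction in any setting, which their choice by size on these arrays largely fixes. Signal near background limits Cy5 more than Cy3.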
